A study of Mus musculus with 3 samples.

Results

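Natural killer (NK) cells were studied in 1 single-cell library of sorted blood from tumor-bearing control mice. A blood barcode was kept with at least 1000 UMIs (unique molecular identifiers, each standing for 1 captured RNA molecule), at least 400 genes and at most 10% of its UMIs from mitochondrial genes. NK cells were chosen by RNA counts: a kept barcode qualified when Ncr1, Klrb1c, Klre1, Gzma and Nkg7 together held at least 5 UMIs, Csf1r held 0 and Lyz2 held at most 5. Of 5550 kept blood barcodes, 156 met this rule, a share of 2.81% (95% exact Clopper-Pearson interval 2.39 to 3.28%). The other 5394 kept blood barcodes serve as the comparison. The 3 libraries of the series held 14427 kept barcodes in all.

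Every library came from C57BL/6J mice carrying subcutaneous B16-F10 melanoma. The blood mice were labelled WT and control, and the remaining libraries came from tumors, 1 of WT control mice and 1 of mice titled FoxP3 DTR whose treatment was Treg depletion. Blood was drawn by cardiac puncture, red cells were lysed, and viable CD45-positive cells negative for CD90, NK1.1, Ly6G, B220 and SigF but positive for CD11b, CD11c or both were sorted before 10x 3' v2 library preparation. The sources used here give no number of animals, age or pooling. Each group is 1 library, so no test between groups was possible, no p-value is given, and intervals cover counting error only. The rule itself chose cells by their RNA, so every contrast of NK cells with other blood barcodes is a description.

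NK cells are innate lymphocytes that kill infected or transformed cells by releasing perforin and granzymes from granules. Whether they kill is set by the balance of activating and inhibitory receptors, and in mice many of these belong to the Ly49 (Klra) and NKG2 (Klrc, Klrk) families encoded in the NK gene complex. In blood most mouse NK cells are mature, with low CD27 and high CD11b, while cells still carrying CD27 are usually less mature. The sort was aimed at myeloid cells, and its NK1.1 exclusion is directed at the protein encoded by Klrb1c.

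Of the 5 label markers, Gzma, Ncr1, Klrb1c and Nkg7 were used to choose the cells, so their levels do not check the label. Klra8, which the rule did not use, stood at 1506 CPM in NK cells and 4.54 CPM in other blood barcodes, and markers of T and B cells were near 0 in NK cells. Klra8 was itself a label marker, named with earlier results of these data known, so its level is not an independent check. CPM is the count of a gene summed over a group of cells and scaled to a group total of 1000000 UMIs. Gzma (ENSMUSG00000023132, GRCm38 chromosome 13, 113093825 to 113100981), the gene of the tryptase granzyme A, had a lowest, median and highest count of 0, 24 and 87 UMIs per NK cell. Nkg7, a granule membrane protein gene, had 1, 10 and 24, and no other gene of the rule was detected in every NK cell. Ncr1, the gene of the receptor NKp46, was detected in 122 of 156 NK cells, and Klre1, a lectin-like receptor gene, in 135. Klra8 had 357 UMIs in 88 NK cells.

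Klrb1c (ENSMUSG00000030325, GRCm38 chromosome 6, 128778485 to 128789215), the gene of the NK1.1 antigen that the sort excluded, was present at 1122 CPM in NK cells and 2.96 CPM in other blood barcodes. With every cell thinned to 1000 UMIs, 64.7% of NK cells (56.7 to 72.2%) held a Klrb1c UMI, and 78.2% did unthinned. No thinned nonclassical or classical monocyte, as defined below, held one. Both monocyte classes left out barcodes with at least 5 UMIs of the rule genes, Klrb1c among them. The contrast in Klrb1c therefore follows in part from the choice of cells. Of the remaining sorting antigens, Ptprc (CD45) stood at 1945 against 824 CPM, Itgam (CD11b) at 169 against 143 CPM and Itgax (CD11c) at 71.7 against 20.01 CPM. Thy1 (CD90) had 0 UMIs in the 156 NK cells. Protein on the cell surface was not measured.

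The values that chose the cells are given here as a description. Their lowest marker sums were 8, 10 and 16 UMIs, with a median of 39 and a highest sum of 120. Among other barcodes with Csf1r at 0 and Lyz2 of at most 5, the highest sum was 3, found in 3 barcodes, and no barcode lay between 4 and 7. Of the NK cells, 78 held 0 or 1 Lyz2 UMIs and 6 held 5, against a median of 130 in other blood barcodes. A further 29 barcodes had at least 5 marker UMIs but were left out of the NK cells, 20 for Csf1r and 25 for Lyz2, some for both. Of these, 4 had at most 5 Lyz2 UMIs and were left out for 1 or 2 Csf1r UMIs alone. The 29 had marker sums of 14 to 122, with medians of 35 marker UMIs, 77 Lyz2 UMIs and 4203 UMIs in all. A score based on simulated doublets marked 20 of them and 0 of the 156 NK cells.

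**Figure D1:**
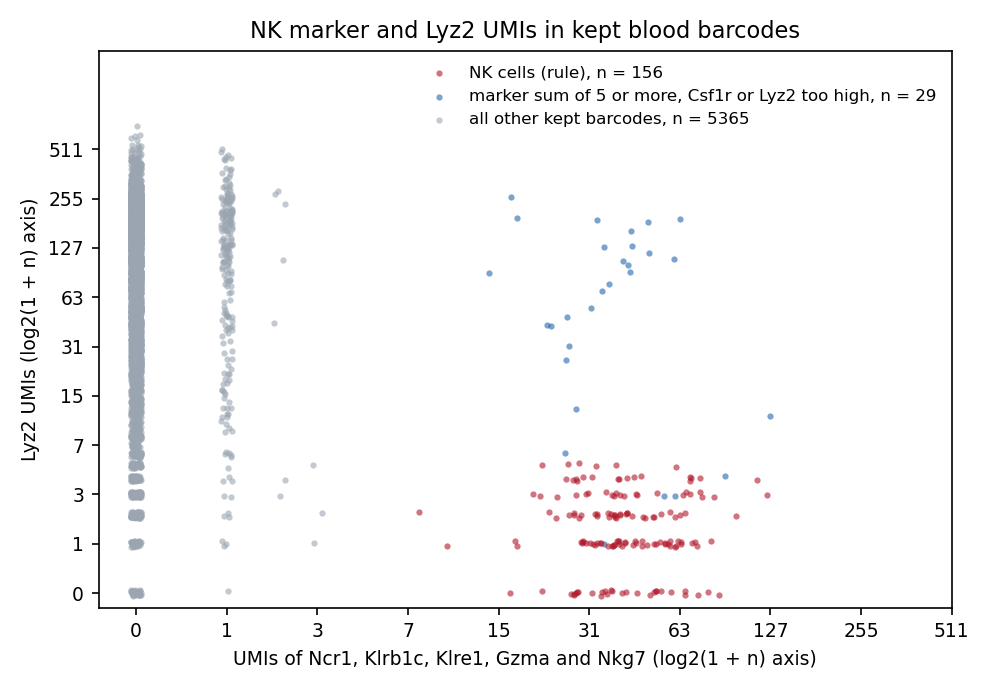
Each point is 1 kept blood barcode, with the summed UMIs of the 5 rule markers on the horizontal axis and Lyz2 UMIs on the vertical axis, both as log2(1 + n) with small random jitter. The 156 NK cells sit at marker sums of 8 to 120 with at most 5 Lyz2 UMIs, the 29 barcodes with both kinds of RNA or with Csf1r are drawn apart, and all other barcodes have sums of at most 3.

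NK cells held less RNA than the other cells. Their median was 1434.5 UMIs (lowest 1012, highest 3474) and 799 genes, against 3586 UMIs and 1445 genes in other blood barcodes. The median mitochondrial share was 2.11% in NK cells and 2.38% in the others. The 156 NK cells summed to 237076 UMIs and the others to 19586457, from a blood library of 22944387 UMIs. With so few NK UMIs, 3 counts equal 12.7 CPM, which is the floor used for a gene with 0 counts. A gene was taken as measured when its CPM in either group corresponded to at least 20 UMIs at the NK total, that is 84.4 CPM. Of the kept blood barcode sequences, 35 were also kept in the library of the control tumor (none of them an NK cell) and 27 in that of the Treg-depleted tumor (3 of them NK cells).

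Among the 2308 measured genes, 467 (20.2%) had an NK level of 2 or more times that in other blood barcodes, and 429 (18.6%) a level of 0.5 times or less; these are counted below as higher or lower. The median log2 ratio over measured genes was 0.14. Nothing is read from these shares, since the rule used the same contrast, but they are the background for the counts of each gene list that follow. A gene that reached the measured minimum in only 1 group was favoured to be counted in that direction. The list counts therefore follow in part from this filter. The 22 lists hold 340 distinct genes, of which 328 were found by symbol and the other 12 were not analysed here.

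**Figure D2:**
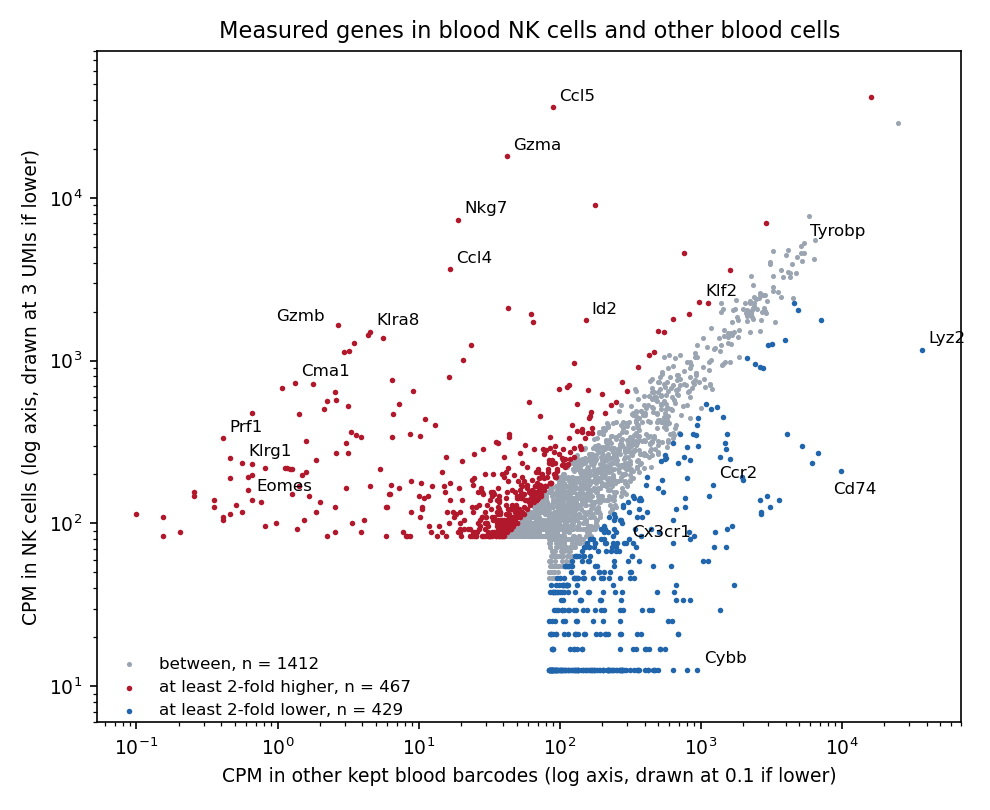
Each point is 1 of 2308 measured genes, with CPM in the other 5394 blood barcodes on the horizontal and CPM in 156 NK cells on the vertical log axis. Ccl5 at 36035 CPM and Gzma at 18095.5 CPM lie far above genes of similar level in the other barcodes, while Tyrobp at 5315 against 5370 CPM lies on the diagonal.

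Ccl5, the gene of the chemokine RANTES, which attracts T cells and monocytes, was second only to the nuclear RNA Malat1 in level. Ccl5 (ENSMUSG00000035042, chromosome 11, 83525778 to 83530518) stood at 36035 CPM in NK cells and 89.9 CPM in other barcodes. Per NK cell it had a lowest, median and highest count of 0, 47 and 225 UMIs, with 155 of 156 cells positive. Ccl5, Gzma and Nkg7 together took 6.15% of NK UMIs and 0.0151% of UMIs of the other barcodes, and ribosomal protein genes took 15.1% and 17.6%. Gzma and Nkg7 are genes of the rule.

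Promoters of 3 NK effector and receptor genes are printed because these genes were present in NK cells and nearly absent from the other blood cells. Gzma, Prf1 and Ncr1 are given 5′ to 3′ on the gene's strand, from 250 bases before to 50 bases after the annotated start (RefSeq, GRCm38.p6). Capitals mark matches on either strand to a RUNX motif (TGTGGT) or an ETS motif (AGGAAG). The T-box motif GGTGTGA, of the kind bound by Eomes and T-bet, was also searched and has no match in these 3 windows. The Gzma window is chr13:113100932-113101231 (minus strand), that of Prf1 chr10:61297586-61297885 (plus strand) and that of Ncr1 chr7:4337465-4337764 (plus strand, the first of 2 listed starts).
Gzma: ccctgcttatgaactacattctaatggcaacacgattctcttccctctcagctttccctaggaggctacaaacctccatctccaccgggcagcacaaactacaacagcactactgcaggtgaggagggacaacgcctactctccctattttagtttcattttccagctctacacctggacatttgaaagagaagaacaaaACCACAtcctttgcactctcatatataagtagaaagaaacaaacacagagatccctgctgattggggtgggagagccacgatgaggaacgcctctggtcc
Prf1: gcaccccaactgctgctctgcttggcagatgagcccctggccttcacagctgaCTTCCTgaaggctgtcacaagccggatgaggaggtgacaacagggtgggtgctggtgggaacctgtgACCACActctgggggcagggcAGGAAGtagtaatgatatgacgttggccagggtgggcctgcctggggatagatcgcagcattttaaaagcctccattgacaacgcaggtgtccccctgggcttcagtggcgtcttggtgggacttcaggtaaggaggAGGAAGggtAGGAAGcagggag
Ncr1: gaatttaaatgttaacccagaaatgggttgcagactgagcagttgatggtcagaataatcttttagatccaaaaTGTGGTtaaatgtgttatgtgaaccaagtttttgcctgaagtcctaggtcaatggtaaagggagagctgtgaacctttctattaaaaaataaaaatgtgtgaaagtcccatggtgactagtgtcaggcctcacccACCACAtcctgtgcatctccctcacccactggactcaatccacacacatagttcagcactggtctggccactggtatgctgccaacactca
The windows held 1 RUNX match in Gzma, 1 RUNX and 4 ETS matches in Prf1 and 2 RUNX matches in Ncr1. Over 32851 promoter windows of the same length, 16.8% held the RUNX motif, 35.4% the ETS motif and 3.98% the T-box motif. A match is a match of letters and was not tested as a binding site.

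Granule genes were mixed. All 20 genes of the cytolytic granule list were found and 14 were measured, of which 8 were at least 2-fold higher, 4 at least 2-fold lower and 2 in between, with a median log2 ratio of 4.81. Prf1 (chromosome 10, 61297833 to 61304680), the gene of the pore-forming protein perforin, had 79 UMIs in 56 NK cells. That is 333 CPM (264 to 415) in NK cells against 0.408 CPM (0.176 to 0.805) in other barcodes, an 816-fold ratio (394 to 1955). Gzmb, the gene of the caspase-activating granzyme B, stood at 1658 CPM against 2.71 CPM, a 613-fold ratio (459 to 832). Gzmk (2 UMIs), Gzmm (8 UMIs) and Gzmc (0 UMIs) were scarce in NK cells.

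Serpinb9, a granzyme B inhibitor gene, stood at 527 CPM in NK cells against 3.17 CPM in other barcodes, and Serpinb6b at 207 against 1.58 CPM. Its relative Serpinb9b had 27 UMIs against 1, a ratio of 2231 with a counting interval of 368 to 91328. Cathepsin W (Ctsw), a cysteine protease of cytotoxic lymphocytes, stood at 717 against 1.79 CPM, the granule cystatin gene Cst7 at 270.0 against 2.60 CPM and the lysosomal protease gene Ctsd at 962 against 126 CPM. Lamp1, a lysosome membrane gene used as a degranulation marker when its protein reaches the surface, stood at 190 against 800 CPM. Ctsc, whose product cathepsin C activates granzymes, stood at 245 against 839 CPM, and Srgn, the granule proteoglycan serglycin, at 595 against 628 CPM. Fasl, encoding the death ligand FasL, was at 118 against 0.562 CPM.

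The Ly49 genes were the list with the highest median, and each was carried by only part of the NK cells. Of 11 listed genes 10 were found and 6 measured, all 6 at least 2-fold higher, with a median log2 ratio of 8.36. All 6 reached the measured minimum only in NK cells, so their direction followed from that filter. Klra8 (chromosome 6, 130115226 to 130129898) encodes the activating receptor Ly49H, which recognizes a cytomegalovirus protein. It stood at 1506 CPM in NK cells and 4.54 CPM in other barcodes. Klra4, the gene of the activating receptor Ly49D, stood at 1430 against 4.39 CPM. The inhibitory receptor genes Klra9 (Ly49I), Klra7 (Ly49G) and Klra3 (Ly49C), which read MHC class I, stood at 1282 against 3.47, 679 against 1.07 and 641 against 2.55 CPM. Klra1 (Ly49A) had 52 UMIs, or 219 against 1.17 CPM. Klra5, Klra6 and Klra10 had 8, 4 and 1 UMIs in NK cells, and Klra17 had 0.

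Between cells, Ly49 detection formed a patchwork. Klra9 was detected in 97 of 156 NK cells, Klra8 in 88, Klra4 in 81, Klra7 in 72, Klra3 in 65 and Klra1 in 19. After thinning to 1000 UMIs the shares were 55.8% (47.6 to 63.7%), 52.6% (44.4 to 60.6%), 46.8% (38.8 to 54.9%), 39.1% (31.4 to 47.2%), 35.3% (27.8 to 43.3%) and 11.5% (7.0 to 17.6%) in the same order. Intervals of neighbouring genes in this order overlapped, except those of Klra3 and Klra1. Nonclassical monocytes, thinned alike, held a UMI in at most 0.198% of cells for any of the 6 genes. Of these 6 genes, 4 NK cells carried none, 23 carried 1, 36 carried 2, 53 carried 3, 32 carried 4, 8 carried 5 and none carried all 6. The median variance over the Poisson expectation was 1.09 across 403 genes with a mean of at least 0.5 UMIs per NK cell, while it was 4.04 for Klra4, 3.79 for Klra8 and 2.60 for Klra9.

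**Figure D3:**
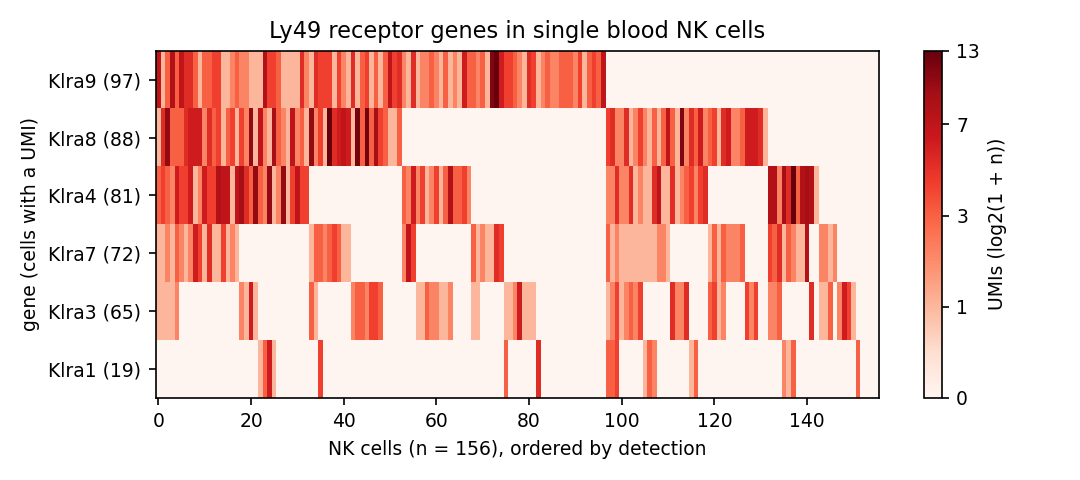
Each column is 1 of 156 NK cells and each row a Ly49 gene with the number of cells holding a UMI, and color gives UMIs as log2(1 + n). Klra9 was detected in 97 cells and Klra1 in 19, and no cell shows all 6.

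Pairs of Ly49 genes met in numbers near the product of their shares, with departures in both directions. Klra4 and Klra8, the activating pair, were both detected in 55 NK cells against 45.7 from the product of their shares, Klra7 and Klra8 in 49 against 40.6, Klra4 and Klra7 in 44 against 37.4, and Klra1 and Klra4 in 15 against 9.87. Klra7 and Klra9 met in 37 against 44.8, Klra3 and Klra9 in 35 against 40.4, Klra1 and Klra9 in 7 against 11.8, and Klra1 and Klra3 in 4 against 7.92. Depth differs between cells and its part in these counts was not tested. Family members share sequence, which bears on how reads were assigned. Among 50-base words in the last 500 bases of annotated transcripts (GENCODE M21), 46.0% of those of Klra9 also occur in another Klra gene, against 31.5% for Klra3, 13.1% for Klra8, 5.76% for Klra1, 4.66% for Klra4 and 0% for Klra7. Levels of Klra9 and Klra3 are therefore uncertain.

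The promoters of the 2 activating Ly49 genes are printed to show how alike these family members are upstream of their starts. The windows are chr6:130129849-130130148 for Klra8 (the first of 2 listed starts) and chr6:130067222-130067521 for Klra4, both on the minus strand of GRCm38.p6, from RefSeq. Capitals mark bases that differ between the pair or have no partner in a global alignment.
Klra8: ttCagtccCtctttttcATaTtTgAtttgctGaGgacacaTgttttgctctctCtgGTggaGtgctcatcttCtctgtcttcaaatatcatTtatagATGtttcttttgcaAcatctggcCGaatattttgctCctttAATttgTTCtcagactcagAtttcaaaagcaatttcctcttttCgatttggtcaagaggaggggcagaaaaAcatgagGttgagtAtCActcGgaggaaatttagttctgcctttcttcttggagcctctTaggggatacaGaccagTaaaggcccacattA
Klra4: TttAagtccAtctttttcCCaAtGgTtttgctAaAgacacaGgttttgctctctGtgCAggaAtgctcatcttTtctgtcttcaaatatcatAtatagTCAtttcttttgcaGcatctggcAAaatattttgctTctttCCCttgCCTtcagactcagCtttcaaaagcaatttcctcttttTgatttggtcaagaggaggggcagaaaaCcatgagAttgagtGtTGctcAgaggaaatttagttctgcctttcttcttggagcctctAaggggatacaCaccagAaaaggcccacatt
Of 299 aligned bases, 259 (86.6%) were identical. Neither window has a match to the RUNX, ETS or T-box letters given above.

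Other NK receptors were mostly high as well. Of 25 listed genes 24 were found and 12 measured, of which 10 were at least 2-fold higher and 2 lower by the same measure, with a median log2 ratio of 5.17. Klrk1, the gene of the stress-ligand receptor NKG2D, stood at 2092 CPM in NK cells against 43.0 CPM in other barcodes and was detected in 95.5% of NK cells. Klrd1 (CD94), the shared partner of the NKG2 receptors, stood at 1721 against 64.8 CPM. Its inhibitory partner Klrc1 (NKG2A) stood at 477 against 0.664 CPM and its activating partner Klrc2 (NKG2C) at 502 against 2.14 CPM, detected in 55 and 76 NK cells. Klrc1 and Klrc2 share 43.3% and 20.5% of their 50-base words near the 3' end with other Klrc genes, so their split is uncertain. Klrg1, an inhibitory cadherin receptor gene of mature NK cells, stood at 236 against 0.562 CPM. Fcgr3, which encodes the CD16 receptor of antibody-dependent killing, was lower in NK cells at 71.7 against 346 CPM. The exhaustion-related genes Pdcd1, Tigit and Havcr2 had 0 UMIs in NK cells and Lag3 had 2, below the measured minimum.

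NK cells shared their ITAM adaptors with myeloid cells and added the kinases of lymphocytes. Tyrobp (DAP12), the adaptor of Ly49D and Ly49H, stood at 5315 CPM in NK cells against 5370 CPM in other barcodes, and Fcer1g, the adaptor of CD16 and NKp46, at 4568 against 5173 CPM. Hcst (DAP10), the adaptor of NKG2D, was higher at 666 against 99.7 CPM. The lymphocyte kinase genes Lck (569 against 2.60 CPM), Txk (565 against 2.25 CPM) and Zap70 (110 against 0.153 CPM) and the SLAM adaptor gene Sh2d1a (232 against 0.664 CPM) were also higher. Sh2d2a, an adaptor gene of lymphocytes, stood at 156 against 0.255 CPM, and Cd247, encoding the CD3 zeta chain that NK cells also use, at 131 against 0.511 CPM. Over the list of 21 genes, all found, 14 were measured and 10 were at least 2-fold higher, 1 at least 2-fold lower and 3 in between. The lower gene was Ptpn6, the phosphatase SHP-1 recruited by inhibitory receptors, at 165 against 499 CPM.

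Some receptors for the cytokines that maintain and activate NK cells were high and others were scarce. Of 19 cytokine receptor genes, all found, 7 were measured, with 5 at least 2-fold higher and 1 lower by the same measure. Il2rb, the chain shared by the IL-2 and IL-15 receptors, stood at 215 CPM in NK cells against 1.23 CPM in other barcodes. Il18rap and Il18r1, the chains of the IL-18 receptor, stood at 350 against 3.62 CPM and 215 against 1.28 CPM, and Il12rb2 of the IL-12 receptor at 101 against 3.37 CPM. The gene between the thresholds was the interferon gamma receptor gene Ifngr1, at 1084 against 719 CPM. Il12rb1, also of the IL-12 receptor, had 2 UMIs in NK cells, Il15ra 3 and Il21r 7, while Il2ra, Il7r and Kit had 0.

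Some transcription factors of the NK lineage were present and others on the same list were scarce. All 25 listed genes were found and 12 measured, 10 of them at least 2-fold higher and none lower by the same measure. Eomes (chromosome 9, 118478212 to 118486132) and Tbx21 (T-bet, chromosome 11, 97098071 to 97115331), the T-box factors that drive NK differentiation, stood at 219 against 0.817 CPM and 190 against 0.460 CPM. Id2, which blocks E proteins in innate lymphocytes, stood at 1772 against 153 CPM, and Ets1 at 354 against 8.63 CPM. Stat4, which carries IL-12 signals, stood at 165 against 3.06 CPM, and Ikzf3 (Aiolos) at 152 against 6.18 CPM. Zeb2, a factor of terminal maturation, differed little at 510 against 407 CPM. In 43 NK cells an Eomes UMI was found, and in 39 a Tbx21 UMI. Below the measured minimum were Gata3 with 13 UMIs in NK cells, Prdm1 with 6, Nfil3 and Tox with 4 each and Tox2 with 0.

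Some genes of both maturation stages were present in NK cells, and several early genes were absent or scarce. Of 17 late genes, all found, 15 were measured and 9 were at least 2-fold higher, 2 at least 2-fold lower and 4 in between. Cma1, a mast cell chymase gene, had 174 UMIs in 89 NK cells and stood at 734 CPM against 1.33 CPM in other barcodes. S1pr5, the sphingosine receptor gene that lets mature NK cells enter blood, stood at 287 against 28.6 CPM. Cx3cr1, the fractalkine receptor gene, and Lgals3 were the lower ones, at 75.9 against 295 CPM and 139 against 2637 CPM. Of 13 early genes, all found, only 5 were measured, with 4 at least 2-fold higher and 1, the adhesion gene Emb, lower at 12.7 against 456 CPM. Among the early genes Ctla2a stood at 198 against 1.48 CPM and Xcl1 at 468 against 1.43 CPM. Of the Xcl1 UMIs, 75.7% lay in 5 NK cells. Il7r, Kit, Thy1, Cd200 and Slamf6 had 0 UMIs in NK cells, Tcf7 had 4 and Ltb 9. Cd27 had 22 UMIs in NK cells, at 92.8 against 38.8 CPM.

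Cd27 was found in few NK cells. After thinning, 14 of 156 (9.0%, 5.0 to 14.6%) held a Cd27 UMI, against 6.85% (5.36 to 8.58%) of nonclassical monocytes, so the NK share is close to that of a myeloid class. The 14 cells had 10323 CPM of Gzma against 18902 CPM in the 142 without Cd27, a ratio of 0.546 (0.476 to 0.624). Gzma was detected in 13 of the 14 and in all 142 of the rest. The 1 NK cell without Gzma or Ccl5 was thus among the 14. It held 2727 of their 22280 UMIs and had the lowest marker sum of all NK cells, 8. Its weight in the ratios of this split was not tested. Prf1 had 1 UMI in them and 78 in the rest, a ratio of 0.124 (0.00309 to 0.709). Summed late genes stood at 6783 against 8250 CPM (ratio 0.822, 0.692 to 0.971) and summed early genes without Cd27 at 1662 against 908 CPM (ratio 1.83, 1.25 to 2.61), although Xcl1, an early gene, had a ratio of 0.268 (0.0544 to 0.804) on 3 UMIs. With the split made on unthinned counts, 18 cells were positive and the Gzma ratio was 0.756 (0.680 to 0.838), while Prf1 had 3 and 76 UMIs, a ratio of 0.29 (0.0585 to 0.880). Cells are not replicates, and these intervals cover counting error only.

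Genes of type 1 innate lymphoid cells, the tissue-resident relatives of NK cells, held 23 UMIs in all in the NK cells. All 13 listed genes were found, and Cxcr6, Il7r, Itga1, Zfp683, Cd200r1, Gpr183 and Inpp4b had 0 UMIs in NK cells. The 3 that were measured, Tmem176a, Tmem176b and Ltb4r1, were at least 2-fold lower, with 1, 7 and 2 UMIs in NK cells. These 3 reached the measured minimum only in the other barcodes, so their direction followed from that filter. T cell genes were near 0. Of 18 listed genes 12 were found and none was measured, with Cd3d at 2 UMIs, Cd3g at 1 and Cd3e, Cd4, Cd8a, Cd8b1, Cd5, Cd6, Thy1 and Foxp3 at 0. The 3 Cd3 UMIs lay in 3 NK cells. Cd28 had 8 UMIs and Zbtb16 had 1. Constant genes of the T cell receptor and immunoglobulin chains were not analysed here. Of the 9 B cell genes found, 8 were at 0, and 1 UMI was Ms4a1.

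RNA of myeloid cells was present in NK cells at a low level. Of 18 monocyte genes, all found, 17 were measured and 17 were at least 2-fold lower, with a summed level of 1485 CPM in NK cells against 28545 CPM in other barcodes. Cybb, the phagocyte oxidase gene, had 2 NK UMIs, at 8.44 against 948 CPM, and Cd300a and F13a1 had 1 each. Psap (354 CPM), Cst3 (299 CPM) and Ifitm3 (270 CPM) were the highest monocyte genes in NK cells. The rule capped Lyz2 and Csf1r, so low monocyte genes follow in part from the choice of cells.

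A different pattern held for the neutrophil genes S100a8 and S100a9, which form the calprotectin complex. They stood at 1261 against 3219 CPM and 953 against 2426 CPM, but 6 NK cells with at least 10 UMIs of the pair held 457 of the 525 UMIs (87.0%). The remaining cells were mostly empty, and 96 held none. The same 6 cells held 55 of the 64 UMIs of Retnlg, another neutrophil gene. Neutrophil markers other than the pair held 83 UMIs in these 6 cells and 33 in the other 150. Over all NK cells Hp had 20 UMIs, Csf3r 9, Cxcr2 6 and Mmp9 6, and Ly6g and Ltf had 0, Ly6g being at only 12.1 CPM in other barcodes. These 6 cells held 1539 to 3474 UMIs in all, against a median of 1434.5 in NK cells. The score based on simulated doublets marked 0 of the 156 NK cells. Beyond that score, the part of neutrophil RNA or doublets in these 6 cells was not tested. Over the neutrophil list of 13 genes, all found, 7 were measured and 6 were at least 2-fold lower. Of 13 dendritic cell genes, all found, 6 were measured and all 6 were at least 2-fold lower, with the MHC class II chaperone gene Cd74 at 211 against 9925 CPM. The 9 platelet and red cell genes held 1 UMI in NK cells. Of 15 immediate early genes, all found, 9 were measured, 1 higher (Jund, 620 against 199 CPM), 3 lower and 5 in between.

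Interferon response genes were lower in NK cells than in the other blood cells. Of 20 type I interferon response genes 19 were found and 10 measured, all 10 at least 2-fold lower, with a median log2 ratio of −2.58. Only Ifi27l2a, with 28 UMIs, reached the measured minimum in NK cells, so the filter itself favoured lower genes here. Isg15, a ubiquitin-like interferon-induced gene, stood at 25.3 CPM in NK cells against 267 CPM in other barcodes, Ifi27l2a at 118 against 2675 CPM and Irf7, the amplifying factor of the response, at 33.7 against 271 CPM. MHC class I genes were mixed. Of 14 genes, all found, 13 were measured, 4 at least 2-fold higher and none lower by the same measure. The nonclassical genes H2-Q7 (557 against 60.5 CPM), H2-Q6 (169 against 15.2 CPM) and H2-Q4 (152 against 33.0 CPM) were higher, and H2-K1 stood at 2269 against 1119 CPM. Sequence shared between these related copies was not measured, so their split is uncertain. B2m, the shared light chain, stood at 4222 against 6356 CPM.

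Among trafficking genes, more were higher in NK cells than lower. All 24 listed genes were found and 16 measured, 10 at least 2-fold higher, 3 at least 2-fold lower and 3 in between. Klf2, a factor of circulating quiescent lymphocytes, stood at 2299 CPM in NK cells against 979 CPM in other barcodes, and Itga4, an integrin chain gene, at 738 against 276 CPM. The monocyte receptor gene Ccr2 stood at 173 against 1228 CPM, and Cd44 was lower too at 88.6 against 252 CPM. Itga2 (CD49b), the antigen of the DX5 antibody used to mark NK cells, had 15 UMIs, at 63.3 against 0.255 CPM. Actin genes hardly differed: all 20 genes of the synapse list were found, 18 measured, 14 between the thresholds, with Rac2 (1502 against 546 CPM) and Pfn1 (7040 against 2900 CPM) among the 3 higher ones and the actin-binding gene Coro1a the 1 lower one (1033 against 2125 CPM). Of 18 cell cycle genes only 3 were measured and Stmn1 alone was at least 2-fold higher, at 186 against 23.8 CPM. Mki67 and Top2a, markers of division, had 1 and 2 UMIs.

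**Figure D4:**
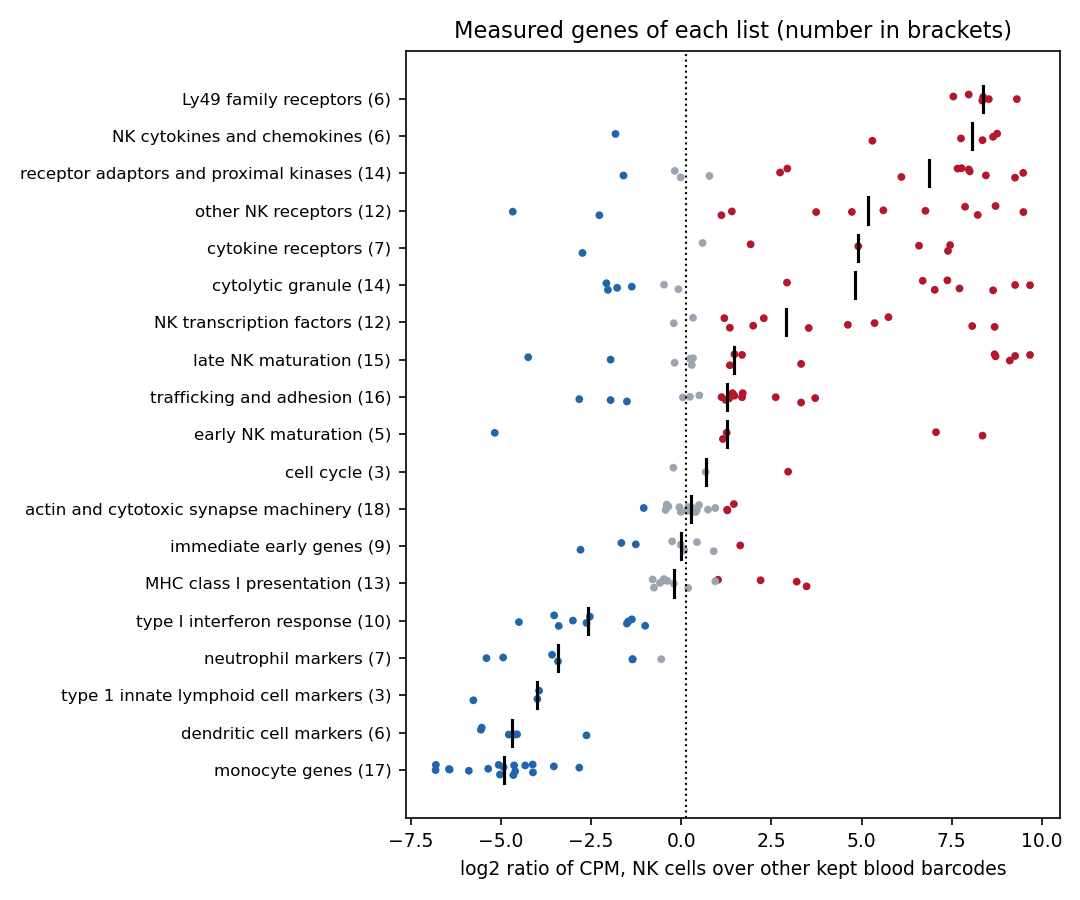
Each point is a measured gene of a list, placed at its log2 ratio of CPM in NK cells over other kept blood barcodes, with red for at least 2-fold higher, blue for at least 2-fold lower and grey for between. Black bars are list medians, from 8.36 for Ly49 genes to −4.93 for monocyte genes, and the dotted line is the median of all measured genes at 0.14.

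Nonclassical monocytes, which patrol vessels, also carry genes of mature NK cells, so levels were set beside those of 1008 blood barcodes with Csf1r, at least 3 UMIs of nonclassical genes and at most 1 Ly6c2 UMI. S1pr5 stood at 287 CPM in NK cells against 80.2 CPM in nonclassical monocytes, a log2 ratio of 1.84 (1.43 to 2.23), and at 6.18 CPM in 1170 classical monocytes. Cx3cr1 was lower in NK cells than in nonclassical monocytes (75.9 against 404 CPM, log2 ratio −2.41, −3.17 to −1.75). Itgal, encoding the alpha chain of the adhesion molecule LFA-1, stood at 295 against 458 CPM (−0.63) and Zeb2 at 510 against 396 CPM (0.36, 0.08 to 0.63). Ly6c2 stood at 911 CPM in NK cells, between the 77.0 CPM of nonclassical and the 2010 CPM of classical monocytes, where it was part of the definitions. It was detected in 37.8% of thinned NK cells (30.2 to 45.9%).

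Secreted factors varied unevenly between single NK cells. Of 14 cytokine and chemokine genes, all found, 6 were measured, 5 at least 2-fold higher and 1, the gene of TGF-beta 1, at least 2-fold lower (118 against 418 CPM). Ccl4, the gene of the chemokine MIP-1 beta, had the highest variance over the Poisson expectation of all 403 genes, at 61.5. Ccl4 (chromosome 11, 83662584 to 83664683) had 862 UMIs in 68 NK cells, with a median of 0 and a highest value of 112, and its 5 highest cells held 56.1% of them. Xcl1, the gene of lymphotactin, which attracts cross-presenting dendritic cells, had 111 UMIs in 22 cells and a ratio of 17.7. S100a8 (50.8), S100a9 (33.6) and Actb (22.9) lay between them, while Ifng had 1.52 and the TGF-beta 1 gene 0.948. By comparison Prf1 had 1.25, and the granzyme genes Gzmb and Gzma had 6.87 and 5.99.

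In 13 NK cells with at least 10 Ccl4 UMIs, a set chosen after the values had been seen, 58 of 1869 genes with at least 20 UMIs had a ratio to the other 143 NK cells whose interval lay above 1, and 37 one below 1. Over so many genes, counting error alone can place some intervals above 1 and some below 1. How many it would place there was not estimated, so whether 58 and 37 exceed that number was not tested. These counts are therefore not read as a shared programme of the 13 cells. The genes named here were picked after their values had been seen. These 13 cells held 14 to 112 Ccl4 UMIs (median 41), while the others held 0 to 9 (median 0). Xcl1 was detected in 9 of the 13 (up to 37 UMIs) and in 13 of the 143 (up to 2 UMIs), at 4069 against 79.4 CPM, a ratio of 51.2 (30.3 to 91.6). Nfkbid, encoding an inhibitor-like regulator of NF-kB, had 28 UMIs in 8 of the 13 cells and 5 UMIs in the rest, a ratio of 51.9 (19.8 to 172). Also higher were Traf1 (ratio 14.3, 6.32 to 33.8), the survival gene Bcl2a1b (13.9, 5.84 to 34.6), the costimulatory receptor gene Tnfrsf9 or 4-1BB (8.10, 3.66 to 17.7) and the inhibitor gene Nfkbia (6.30, 3.19 to 12.1). Ccl3 had a ratio of 4.12 (2.63 to 6.33), Irf8 3.65 (2.66 to 4.93) and Ifng, the gene of interferon gamma, 4.63 (1.58 to 12.3) on 7 UMIs in 3 of the 13 cells. Some of these ratios rest largely on single cells. Tnfrsf9 was detected in 4 of the 13, and 1 cell held 11 of its 14 UMIs there. The same cell held 13 of the 32 Ccl3 UMIs and 37 of the 94 Xcl1 UMIs of the 13 cells. Another cell held 11 of the 28 Nfkbid UMIs.

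Gzma stood at 17272 CPM in the 13 cells against 18184 CPM in the others (ratio 0.95, 0.855 to 1.05), and Gzmb at 1732 against 1650 CPM (1.05, 0.737 to 1.46). Prf1 stood at 519 against 313 CPM (1.66, 0.817 to 3.09). Ccl5 differed little, with a ratio of 1.27 (1.19 to 1.36). Depth differed, with medians of 1797 UMIs in the 13 and 1405 UMIs in the 143 cells. Fos, an immediate early gene, had 1 UMI in the 13 cells and 9 in the others, and Jun had 0 in both. Other immediate early genes were higher, with Nr4a1 at 9 against 3 UMIs (ratio 27.8, 6.93 to 160), Egr1 at 3 against 3 UMIs (9.26, 1.24 to 69.2) and Junb at 13 against 54 UMIs (2.23, 1.12 to 4.14). Tnf had 0 UMIs in all NK cells.

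**Figure D5:**
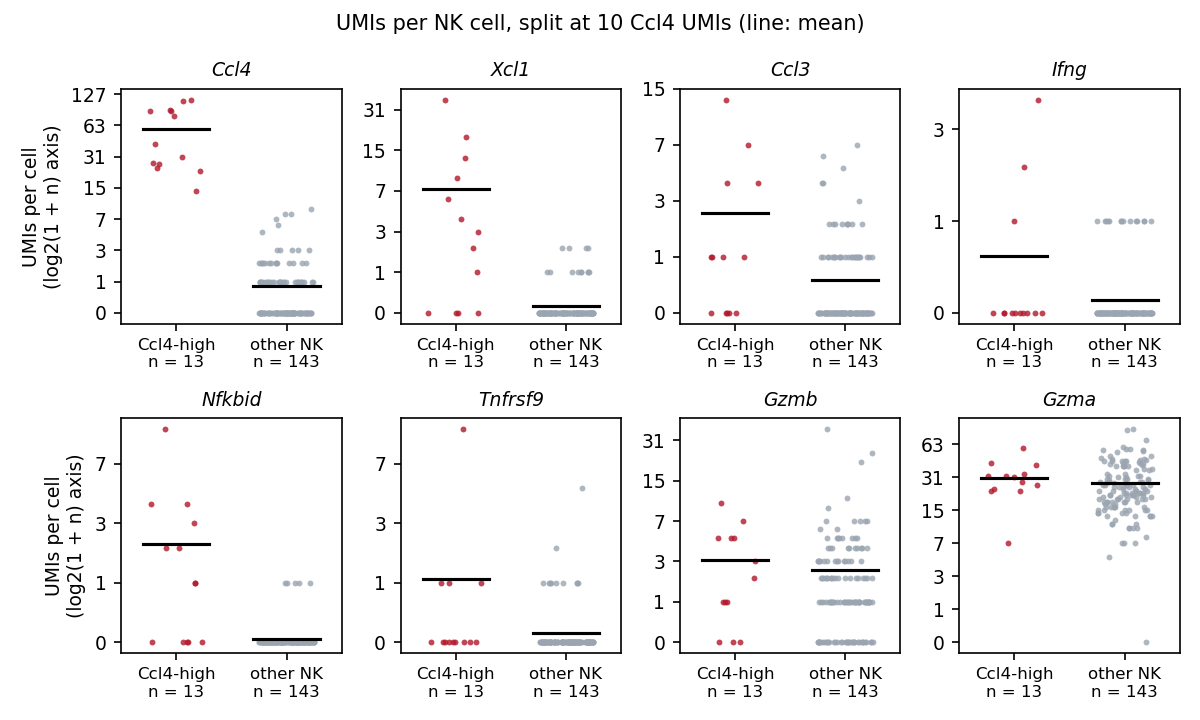
Each point is 1 NK cell, with UMIs of the named gene on a log2(1 + n) axis, for 13 cells with at least 10 Ccl4 UMIs on the left and the other 143 on the right, and the line is the mean. Xcl1 and Nfkbid exceed 2 UMIs only on the left, while Gzma and Gzmb overlap throughout.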

How the data were processed

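Per the labels' protocols, libraries were made with the Chromium 3' v2 kit, and per the submitters' processing notes Cell Ranger 1.2 and mm10 were used. The authors deposited whole-number UMI counts for 27998 genes and all 737280 kit barcodes, with no cells called. Barcodes were kept and NK cells chosen by the thresholds in the report, with Python 3.11.15 and numpy 2.4.6. No doublet caller was applied to the main values. Counts were summed over cells and divided by the group total (CPM); ratios carry exact conditional Poisson intervals, CPM exact Poisson intervals and shares Clopper-Pearson intervals, all at 95%. Where several identifiers bear 1 symbol, that with the most UMIs was used. Coordinates are from GENCODE M21 (GRCm38), which held 27645 of the 27998 identifiers. Both monocyte classes had at least 1 Csf1r UMI and left out the 29 barcodes with at least 5 marker UMIs. Nonclassical ones had at most 1 Ly6c2 UMI and at least 3 UMIs of Ace, Treml4, Cd300e, Eno3, Nr4a1, Spn and Pou2f2; classical ones had at least 3 Ly6c2 UMIs, at least 3 of Ccr2, Fn1, F13a1, Chil3 and Vcan, and fewer than 3 of the nonclassical genes. A class of 61 barcodes picked by B cell genes held 15 Cd4 UMIs and was not used further.

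Members, lists and rules were chosen with earlier results of these data known. Besides listed and rule genes, the text names genes from the 15 largest and 10 smallest ratios (genes of 100 CPM or more, and 20 UMIs or more, in whichever group was higher), and from the 10 most and 5 least variable genes across NK cells. Genes of the Ccl4 comparison were chosen after their values had been seen. Ratios and intervals were tested on simulated Poisson sums. These sums hold no extra variance between cells, unlike genes such as Ccl4, so the simulation does not show that the intervals cover that variance. Levels in the tumor libraries were not compared, as each held under 50 barcodes meeting the rule.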

Additional observations from a re-analysis of the deposited data

Results flagged for a closer look

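Barcodes meeting the NK rule also occurred outside the blood library. The control tumor held 18 among 4443 kept barcodes (0.405%, 0.240 to 0.640%), and the Treg-depleted tumor held 1 among 4434 (0.0226%, 0.000571 to 0.126%). The 18 had marker sums of 7 to 108 (median 37) and a median of 2035 UMIs. Each tumor is 1 library, the libraries differ in depth, and no difference between them was tested.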

How the results depend on the processing

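No paired analysis was possible because each group had 1 library. The share of NK cells stayed between 2.54% and 2.94% under marker minimums of 3 or 10 UMIs, a rule of Ncr1, Klrb1c and Klre1 alone, 500 UMIs and 200 genes, 5% mitochondrial UMIs, removal of doublet scores or of cells with a Cd3 UMI, and, chosen after seeing the data, removal of the S100a8 or Ccl4 cells (2.71% and 2.58%). It was 0.523% (29 cells) with Lyz2 at 0 and 0.344% (16 cells) at 2000 UMIs. With Lyz2 at 0 the chosen cells with 1 to 5 Lyz2 UMIs join the comparison by construction, and at 2000 UMIs most are left out. Counts of higher and lower genes, 467 and 429 of 2308 measured genes, fell together with the number of measured genes. They were 62 and 96 of 403 with Lyz2 at 0 and 57 and 81 of 364 at 2000 UMIs. As shares these were 15.4% and 23.8%, then 15.7% and 22.3%, against 20.2% and 18.6% in the main setting. The counts were 947 and 711 of 4077 measured genes (23.2% and 17.4%) with a minimum of 10 UMIs per gene. With 50 they were 144 and 204 of 916 (15.7% and 22.3%). Scaling by the median of gene ratios shifted all log2 ratios by 0.14 and gave 406 and 471. Ambient RNA, estimated at 5.00% of NK UMIs from monocyte genes, gave 474 and 433 of 2212 measured genes once subtracted. With the 29 marker-positive barcodes taken out of the comparison, 20.2% of 2310 measured genes were higher and 18.7% lower.

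List genes were counted only where they were still measured in a setting. Measured genes numbered 403 with Lyz2 at 0, 364 at 2000 UMIs, 4077 with 10 UMIs per gene and 916 with 50, against 2308. A smaller count can therefore reflect genes that were no longer measured, and is not read as a lost difference. List members past 2-fold in either direction moved by over 1.5 times in these cases. With Lyz2 at 0 they numbered 4 for other NK receptors, 4 for adaptors, 0 for cytokine receptors, 6 for trafficking, 1 for transcription factors, 2 for cytokines, 0 for early and 5 for late maturation, 0 for innate lymphoid markers, 11 for monocyte genes, 1 for type I interferon, 0 for cell cycle, 1 for immediate early and 2 for MHC class I genes. At 2000 UMIs they numbered 7 for cytolytic granule genes, 2 for other NK receptors, 1 for adaptors, 0 for cytokine receptors, 4 for trafficking, 2 for transcription factors, 3 for cytokines, 1 for early and 5 for late maturation, 0 for innate lymphoid markers, 9 for monocyte genes, 1 each for neutrophil, type I interferon, immediate early and MHC class I genes, 0 for cell cycle and 2 for actin genes. With 10 UMIs per gene they were 2 for B cell markers and 2 for cell cycle, and with 50 UMIs 6 for adaptors, 5 for transcription factors, 2 for early maturation, 5 for type I interferon, 0 for cell cycle, 1 for immediate early and 2 for MHC class I genes. Of 192 genes followed over 16 settings, 3 that were at least 2-fold higher or lower changed direction, each with Lyz2 at 0: Slamf7 (log2 ratio −1.20), Cd7 (−0.94) and Ifit3 (0.43). A further 326 of the 3072 gene and setting pairs gave a log2 ratio outside the main interval. The thinned Klrb1c share of 64.7% was 78.2% unthinned.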

Other observations

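A single NK cell held 172 of the 1831 Actb UMIs, while the median NK cell held 8, and the variance of Actb over the Poisson expectation was 22.9. The least variable of the 403 genes were Cox7a2, Dok2, Ndufa4, Clic1 and Dad1, at 0.753 to 0.805. The 10 genes with the smallest ratios were Cybb, Cd300a, F13a1, Clec4a1, Ly86, Hpgd, Pid1, Ctsh, Mpeg1 and Tmem176a, with 1 to 3 UMIs each in NK cells. Between 500 and 1000 UMIs, 15 more blood barcodes met the NK rule on marker, Csf1r and Lyz2 counts.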
